A study of Homo sapiens with 6 samples.

Results

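NEAT1 is a nuclear long noncoding RNA, and its crosslink events with the RNA-binding protein QKI-5 were described here along its whole length. The members are all single-nucleotide crosslink positions on the plus strand of chromosome 11 between 65190245 and 65213011 (hg19), an interval of 22767 nt and 1 gene. The short part runs to about 65194003 (3759 nt), and the remaining 19008 nt belong to the long isoform only. Values of libraries are always listed for replicates 1, 2 and 3 in that order. With the antibody the interval held 7145 of 5239862, 2170 of 1243745 and 3192 of 1651104 crosslink positions. In the controls it held 219 of 105833, 52 of 25736 and 60 of 18372. NEAT1 was proposed for description because its windows held many crosslink clusters in these QKI-5 libraries, so its level in them is given as a description.

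The gene yields a short polyadenylated RNA and a long RNA from the same start site. The long RNA is the scaffold of paraspeckles, nuclear bodies in which it is bound by proteins such as NONO and SFPQ. Its ends lie towards the surface of the body and its middle towards the core. Processing at the end of the short part decides whether the short or the long RNA is made. QKI-5 is the nuclear form of Quaking, a KH-domain protein of the STAR family that binds RNA and regulates splicing. Events in the short part can come from either RNA, and the files cannot assign them to 1 of the 2.

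The series used iCLIP, in which UV light (150 mJ/cm2) links protein to RNA and the cDNA ends mark the linked nucleotide. It was done in BEAS2B, an established human bronchial epithelial cell line grown with no other treatment named. The 3 QKI-5 libraries were made with a self-made antibody against QKI-5, and the labels of the 3 control libraries name no antibody. Whether the controls received any antibody is therefore not known, and values given as without the antibody are those of these controls. Which RNase A dilution each library received, and whether replicates were separate cultures, the labels do not say. The p-values therefore cover the spread among these 6 libraries alone, and that spread may be technical. No RNA abundance was measured in these files, so more NEAT1 RNA and more crosslinking per RNA cannot be told apart. No hg19 sequence was used here, so no binding motif was searched and no sequence is shown.

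Levels are in EPM, events per 1000000 events of the library. The QKI-5 libraries held 2143279 to 7283982 events and the controls 29810 to 137926, so 1 event is 0.137 to 0.467 EPM in the QKI-5 libraries but 7.25, 24.1 and 33.5 EPM in the controls. NEAT1 itself rests on 37426, 6924 and 11141 events with the antibody and on 260, 67 and 89 events in the controls. No source used here says whether PCR copies were merged, so all intervals cover counting error only. Control replicate 3 stood apart from the other controls within NEAT1, with more of its events in the short part and in the leading peak, and results that rest on it are given with and without it.

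NEAT1 took a larger part of the events with the antibody than without it. Its level was 5138, 3231 and 3856 EPM with the antibody, and 1885, 1615 and 2986 EPM in the controls. The groups did not overlap. Of the 29959 tested 10 kb windows, which are shorter than NEAT1, 23.7% were also higher in every QKI-5 library than in every control. For NEAT1, QKI-5 replicate 2 lay only just above control replicate 3. The means were 4075 ± 972 and 2162 ± 726 EPM (SD, n = 3 each), a ratio of 1.88. Events were also stacked more deeply in the QKI-5 libraries, at 5.24, 3.19 and 3.49 events per occupied position against 1.19, 1.29 and 1.48 in the controls. The MALAT1 windows described further on, which were not higher with the antibody, were stacked at 7.39, 3.85 and 4.81 events per position against 1.48, 1.49 and 1.44. Depth moves with these measures, since the QKI-5 libraries hold many times more events, and its part was not tested. With each position counted once, the order turned, to 1681 ± 290 positions per 1000000 positions in QKI-5 libraries and 2452 ± 705 in controls. Of all NEAT1 nucleotides, 31.4, 9.53 and 14.0% carried an event with the antibody, against 0.962, 0.228 and 0.264% in controls. With at most 3 events counted per position the means were 2215 and 2471 EPM, again lower with the antibody.

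The difference between the groups was not even along the transcript. Crosslink density, in EPM per kb of sequence, was compared in the short part and in 3 consecutive segments of 6336 nt that divide the long-only part, called 5′, middle and 3′ segments below. In the short part it was 324, 259 and 355 with the antibody and 149, 135 and 393 in the controls. The highest value was that of control replicate 3, so the groups overlapped. In the 5′ segment (65194004 to 65200339) it was 380, 207 and 212 with the antibody and 76.7, 64.7 and 138 without it. In the middle segment (65200340 to 65206675) it was 173, 88.4 and 115 against 56.1, 38.1 and 26.5. Both segments were higher in every QKI-5 library than in every control, by 2.87 and 3.12 times on the means. Of the 29959 tested 10 kb windows 23.7% were also higher in every QKI-5 library. Those windows are longer than the segments, so shares of them are not a like-for-like background. In the 3′ segment (65206676 to 65213011) it was 66.3, 60.5 and 70.6 against 76.7, 72.3 and 74.1, so in the last 6336 nt of the long RNA every QKI-5 library lay below every control, by a ratio of 0.885 on the means. Direction differed within the stretch, as the 1 kb windows from 65210001 and 65211001 were higher in every QKI-5 library than in every control. So were 43.4% of all 6749 tested 1 kb windows, and the controls held only 4, 2 and 1 events in the former and 9, 0 and 0 in the latter. The lower level of the 3′ segment also depends on scaling by library totals. With TMM, the scaling of the edgeR fit, the log2 fold change of each tested 1 kb window was above 0. Of the tested 10 kb windows 3.65% were likewise lower in every QKI-5 library, and 1 event in a control is worth more than the gap between some of these values.

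**Figure D1:**
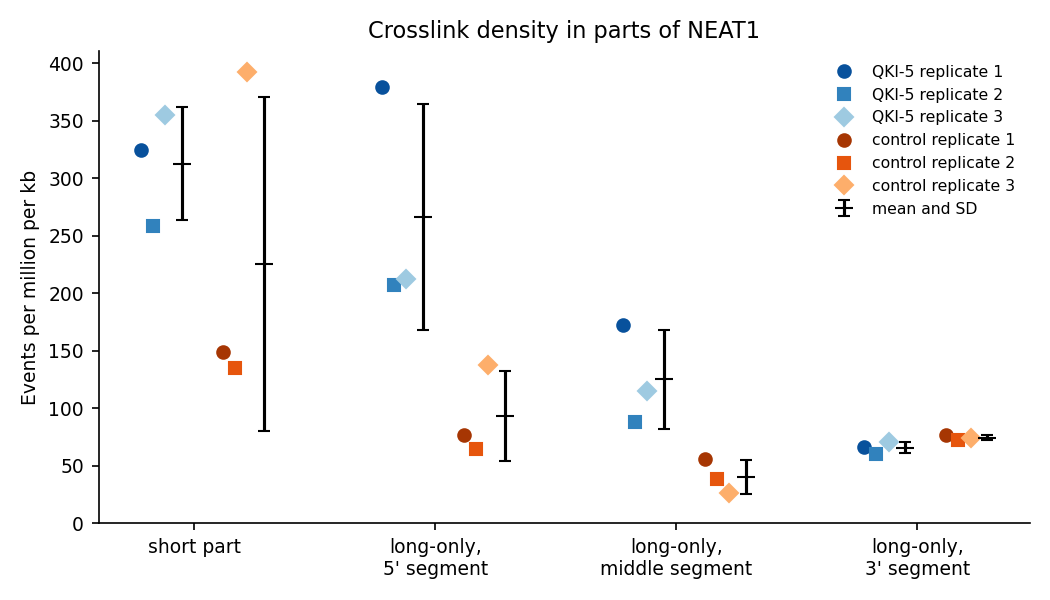
Crosslink density (EPM per kb, vertical axis) in the short part and in the 5′, middle and 3′ segments of the long-only part of NEAT1, 1 point per library, with the mean and SD of each group (n = 3). QKI-5 points lie above all controls in the 5′ and middle segments and at 60.5 to 70.6 against 72.3 to 76.7 in the 3′ segment.

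Shares of a library's own NEAT1 events do not depend on its total and were tested between the groups. The p-values were adjusted over 5 such shares. Those in the 5′ segment and, further on, in peaks are given without their p. The two-sided exact permutation test cannot go below p = 0.1 with 3 libraries against 3. The shares of the short part and of the 3 segments make up the whole in each library, so clusters in 1 of them lower the others. NEAT1 was chosen for its QKI-5 clusters, so the p-values of the other shares do not stand apart from that choice. All these shares are read as a description. The 3′ segment held 8.18, 11.9 and 11.6% of NEAT1 events with the antibody and 25.8, 28.4 and 15.7% in the controls. The lowest control share, from 14 events in control replicate 3, has a 95% exact (Clopper-Pearson) interval of 8.88 to 24.98%, which includes the shares of QKI-5 replicates 2 and 3 but not that of replicate 1. The group means were 10.5 ± 2.05% and 23.3 ± 6.67% (SD, n = 3 each, exact permutation p = 0.1, adjusted 0.167), a difference of -12.7 percentage points that was -16.5 without control replicate 3. The 5′ segment held 46.8, 40.7 and 34.9% with the antibody and 25.8, 25.4 and 29.2% without it. Its means were 40.8 ± 5.95% and 26.8 ± 2.11%, and every QKI-5 library was above every control. The leading peak, described further on, lies in this segment. NEAT1 was chosen for its QKI-5 clusters, so this difference is a description. Leaving out the 51 nt around the leading peak lowered that difference from 14.0 to 5.99 percentage points, and the groups then met at 23.4% in QKI-5 replicate 3 and 25.2% in control replicate 1. In the same setting the difference was 9.83 points for the middle and -11.7 points for the 3′ segment, without overlap of the groups in either. For the short part it was -4.09 points, with overlap. With each position counted once the differences were 2.98 points for the 5′, 10.8 for the middle and -4.86 for the 3′ segment, in the same directions. With at most 3 events per position the 5′ difference was 2.54 points and the 3′ difference -6.52 points (exact permutation p = 0.3 for the latter). In both segments the groups then overlapped.

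The middle segment held 21.3, 17.3 and 18.9% of NEAT1 events with the antibody and 18.8, 14.9 and 5.62% in the controls, and control replicate 1 exceeded QKI-5 replicate 2. The difference of the means was 6.04 percentage points (exact permutation p = 0.2, adjusted 0.25) and 2.28 without control replicate 3. The short part held 23.7, 30.1 and 34.6% with the antibody and 29.6, 31.3 and 49.4% without it. These shares overlapped, with means of 29.5 ± 5.48% and 36.8 ± 10.98% (exact permutation p = 0.5, adjusted 0.5), and the difference of -7.30 percentage points was -0.985 without control replicate 3. Per kb, the short part was denser than the long-only part in all 6 libraries, by 1.57, 2.18 and 2.68 times with the antibody and by 2.13, 2.31 and 4.94 times in the controls. A higher density in the short part is therefore shared by QKI-5 and control libraries.

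The QKI-5 events were concentrated in a few narrow peaks. Peaks were ranked by the events within 10 nt of a centre (21 nt in all), as the geometric mean EPM of the QKI-5 libraries, with centres at least 50 nt apart. The 10 highest covered 0.922% of the NEAT1 bases and held 35.4, 33.0 and 25.9% of the NEAT1 events with the antibody. In the controls they held 4.23, 7.46 and 20.2%. Of the 10 peaks, 3 lay in the short part and 7 in the long-only part. These peaks were chosen on the QKI-5 libraries, so the higher shares there are a description.

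The leading peak lay in the long-only part, centred on 65196105, 5860 nt from the start and 2102 nt past the end of the short part. It held 972, 409 and 404 EPM with the antibody, from 7079, 876 and 1166 events, which is 18.9, 12.7 and 10.5% of the NEAT1 events. In the controls it held 1, 0 and 6 events. The 6 events of control replicate 3 are 6.74% of its NEAT1 events (95% exact interval 2.51 to 14.1%), and the 1 event of control replicate 1 is 0.385%. Within 51 nt of sequence around that centre control replicate 3 held 12 of its 89 NEAT1 events, or 13.5%, against 23.6, 14.5 and 15.01% with the antibody, while controls 1 and 2 held 2 events each. The nucleotide with most events differed between libraries. It was 65196104 in QKI-5 replicate 1 (986 events), 65196105 in replicate 2 (309 events) and 65196114 in replicate 3 (451 events). Position 65196114 was high in all of them, with 804, 97 and 451 events.

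The next peak lay at the very end of the short part, centred on 65193934, 69 nt before its end. It held 205, 290 and 201 EPM with the antibody, and 1, 2 and 4 events in the controls. Its highest positions were 65193942, 65193941 and 65193942, with 315, 159 and 192 events. Of all events in the short part, its last 100 nt held 23.8, 33.4 and 23.1% with the antibody and 2.60, 9.52 and 13.6% in the controls. The signal fell before the end point was reached. In the 10 nt that begin 70 nt before the end, the QKI-5 libraries held 2.82, 7.86 and 3.93% of their NEAT1 events. In the 10 nt that begin 30 nt before it they held 0.048, 0.029 and 0.081%. The last 100 nt of the short part held 2113, 697 and 893 events with the antibody, and the next 100 nt held 55, 14 and 15. The pooled controls had 10 events in the former stretch, 6 of them in control replicate 3, and 0 in the latter. With the end moved 200 nt upstream, which puts this peak into the other part, the short share became 20.8 ± 4.50% in QKI-5 libraries and 33.2 ± 8.25% in controls. Every QKI-5 library was then below every control. The peak was picked on the QKI-5 libraries, so this is a description.

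**Figure D2:**
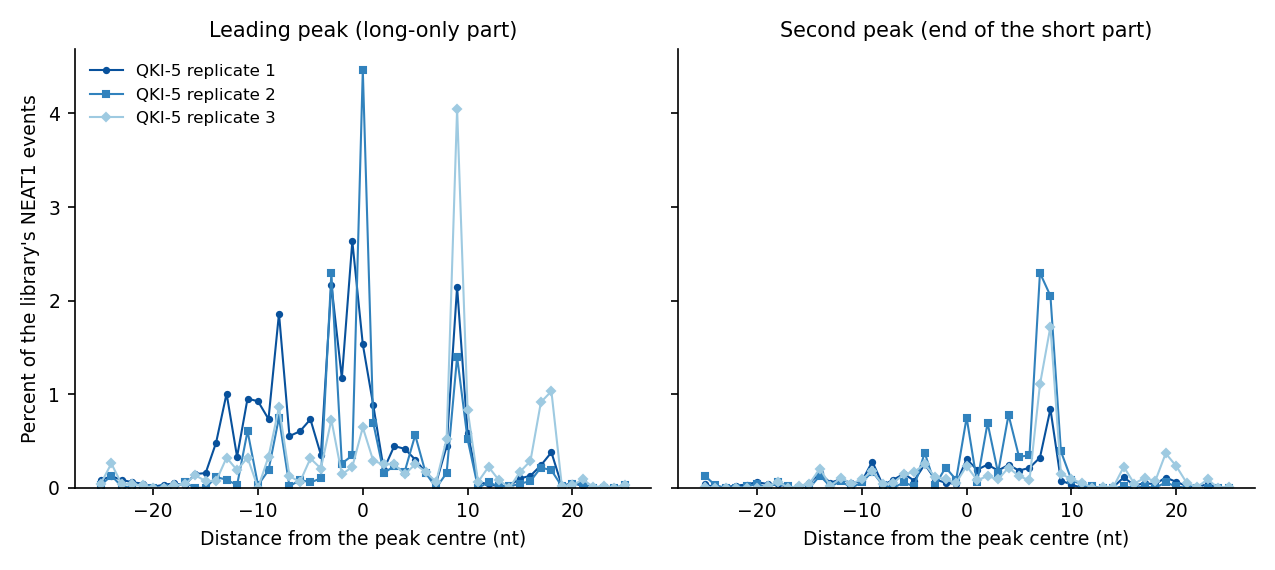
Percent of each QKI-5 library's NEAT1 events (vertical axis) at single nucleotides within 25 nt of the centre of the leading peak (left) and of the peak at the end of the short part (right), 1 line per library. In the right panel the lines peak 7 to 8 nt after the centre, and in the left panel the highest nucleotide differs between libraries.

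A further peak at 65196053 lay close before the leading one, its centre little more than the required 50 nt away. It held 135, 64.4 and 43.3 EPM with the antibody and 3 control events in all. Another lay at 65199723, with 101, 113 and 46.4 EPM and 1 control event. In the middle of the long RNA, 3 peaks lay within 300 nt of each other, at 65204638, 65204725 and 65204921. They held 109, 42.5 and 50.2 EPM, then 53.7, 23.3 and 41.9 EPM, then 47.5, 33.6 and 21.8 EPM with the antibody. The controls had 1, 0 and 3 events there. QKI-5 replicate 1 was the highest in each of these 3. The peak at 65202825 held 46.1, 28.5 and 25.6 EPM and no control event, which over the pooled 416 control events allows a share of up to 0.883% (95% exact upper limit).

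The other 2 peaks of the short part lay 1424 and 1297 nt before its end, at 65192579 and 65192706. The former held 115, 25.7 and 64.7 EPM with the antibody and 4, 1 and 5 events in the controls. As shares of NEAT1 events these are 2.24, 0.794 and 1.68% with the antibody and 1.54, 1.49 and 5.62% in the controls, and the groups overlapped. The peak at 65192706 held 36.4, 36.4 and 99.3 EPM and 2 control events, so QKI-5 replicate 3 stood out there. No peak of the 10 lay in the 3′ segment. Just outside the 10, the peak at 65204535 had a geometric mean of 30.2 EPM and that at 65209341 one of 29.0 EPM, against 32.3 EPM at 65202825, the last of the 10. The peak at 65209341 lay in the 3′ segment and held 4, 5 and 0 events in the controls, or 2.16% of pooled control events against a mean of 0.758% in QKI-5 libraries.

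**Figure D3:**
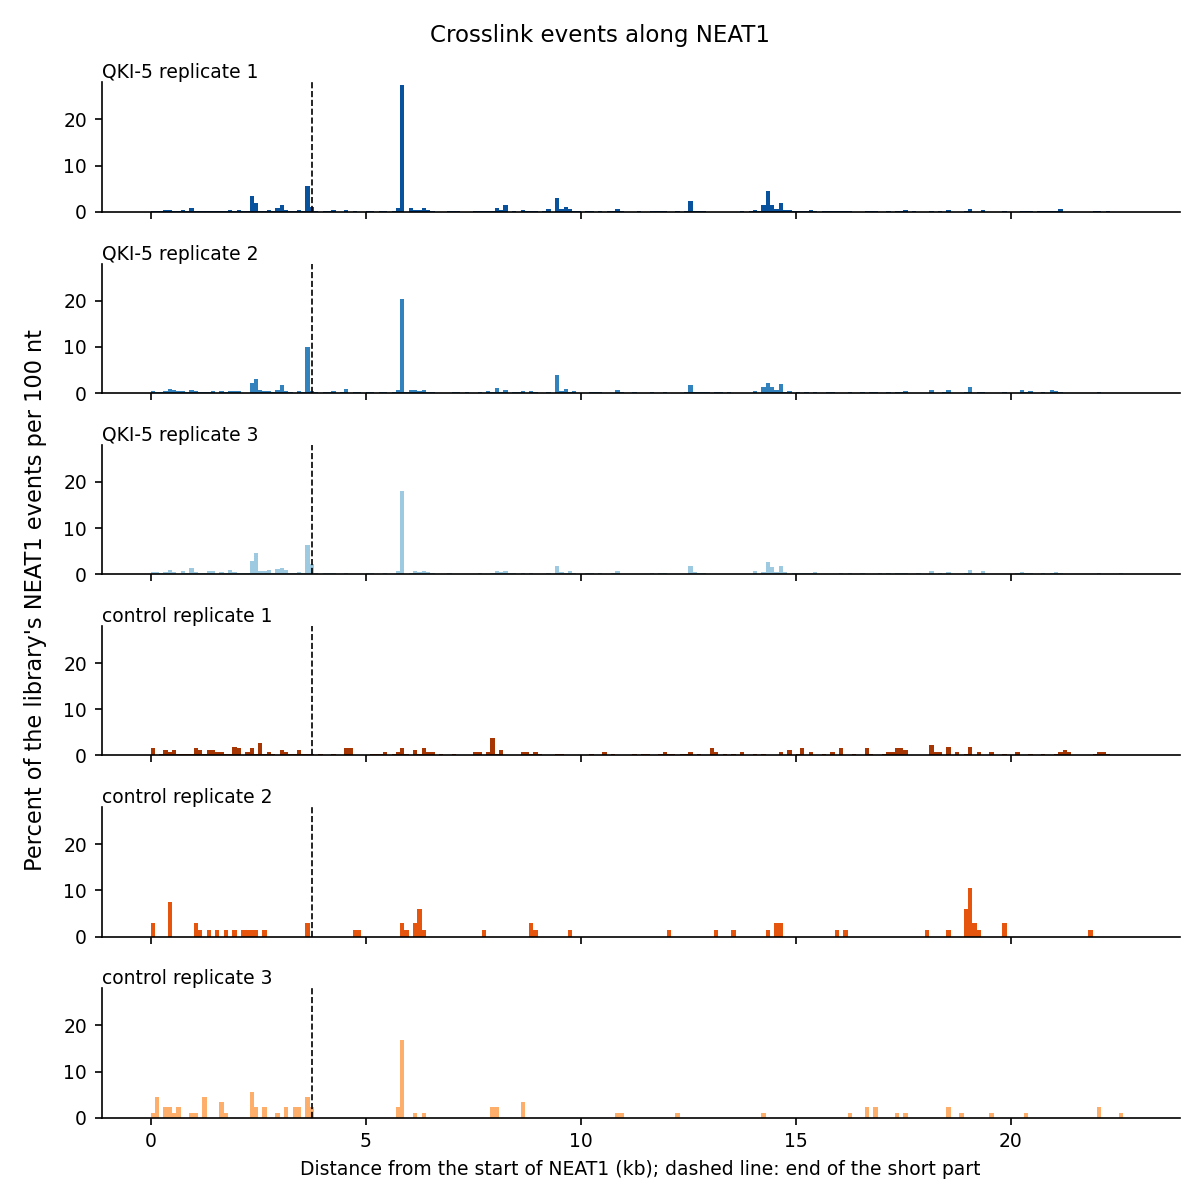
Percent of each library's NEAT1 events per 100 nt (vertical axis) against distance from the start of NEAT1 (kb), 1 panel per library, with a dashed line at the end of the short part. All QKI-5 panels and control replicate 3 have their tallest bar near 5.8 kb, while controls 1 and 2 have theirs elsewhere.

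To measure peaks in libraries that had not chosen them, the 20 highest peaks of 2 QKI-5 libraries (420 nt, 1.84% of the bases) were read in the QKI-5 library left out and in the controls. The held-out QKI-5 libraries had 39.4, 37.9 and 27.7% of their NEAT1 events in them. The controls had 8.72, 17.9 and 23.2%, averaged over the 3 peak sets. The means were 35.0 ± 6.39% and 16.6 ± 7.34% (SD, n = 3 each), and every QKI-5 library was above every control. NEAT1 was chosen for its clusters in these QKI-5 libraries, so this share is a description and no p is given for it. Control shares were also many times the share of bases covered, and the peak positions carried events in the controls too. With each position counted once, the direction turned, to 8.76 ± 2.95% with the antibody and 15.5 ± 8.93% without it. A peak of 21 nt can hold no more than 21 occupied positions on that scale.

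The QKI-5 libraries resembled each other along the gene. Across 228 bins of 100 nt, Pearson's r between pairs of them was 0.96 to 0.97 and Spearman's rho 0.79 to 0.86. The bins share libraries and depth, and the leading peak weighs heavily on Pearson's r. Of the 10 highest peaks found in each QKI-5 library alone, 5 were found in all 3 within 10 nt, and 6 or 7 were shared by any pair. Over 23 bins of 1000 nt, the mean QKI-5 profile and the pooled controls had r = 0.45 and rho = 0.45, with few control events per bin.

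In the genome-wide comparison the parts of NEAT1 were read against all strand-specific 10 kb windows by edgeR's quasi-likelihood test on event counts. The gene was chosen on these QKI-5 libraries, so its fold changes and calls are a description and its p-values are not given. The log2 fold change, QKI-5 over control, was 1.39 (SE 0.60) for the short part and 1.85 (SE 0.70) for the long-only part. Neither passed an adjusted p of 0.05, where 0.771% of 29959 features passed as higher and 0.107% as lower. All tested features had a median of 0.78 with TMM scaling and 0.27 with library totals. On library totals the short part was at 0.62 and the long-only part at 1.21, so both lay above the median on each of these 2 scales but not with positions counted once. Without control replicate 1 both were called, at 1.88 and 2.70. That fit covered 52139 windows, had a median of 6.69 and called 1.55% of them higher. The DESeq2 Wald test called the long-only part (1.66) and not the short part (1.17), where it called 0.758% of all features higher. With each position counted once, the short part was at -0.15 and the long-only part at 0.35, both below the median of 0.59 in that fit.

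At 1 kb the interval fell into 24 windows of the genome grid, of which 23 were tested. By the same edgeR test 8 of the 23 were higher with the antibody and 0 lower, where 36.8% of all 6749 tested windows were higher and 1.7% lower. Every QKI-5 library exceeded every control in 10 of the 23, against 43.4% of all tested windows. In this fit both counts are near the background, and nothing is read from them, or from the calls at 10 kb, since the gene was chosen on QKI-5 libraries. The 8 were 65193001, 65196001, 65199001, 65200001, 65201001, 65202001, 65204001 and 65210001 by their starts. The number moved with the setting, and so did the share of all tested windows called higher. With library totals 3 were called (3.42% of all windows), by the DESeq2 Wald test 15 (45.3%) and with each position counted once 2 (24.8%). Without control replicate 1 there were 20 (13.7% of all windows) and without control replicate 3 there were 14 (8.83%). Without QKI-5 replicate 1 there was 1 of 15 tested (14.6%) and without QKI-5 replicate 3 there were 3 of 14 tested (25.8%).

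The window from 65196001, which holds the leading peak, was the highest, at 1608, 771 and 822 EPM with the antibody and 123, 241 and 637 EPM in the controls (log2 fold change 2.98, SE 0.93). Next came that from 65193001, which covers the last stretch of the short part, at 566, 483 and 554 EPM against 116, 48.2 and 436 EPM (2.60, SE 0.86). In both, control replicate 3 came closest to the QKI-5 libraries. The window from 65204001, with 3 of the peaks, was at 576, 263 and 318 EPM against 43.5, 121 and 33.5 EPM (3.51, SE 0.89). Control replicate 3 was the lowest library there. The lowest windows were the last, of which 11 nt belong to NEAT1 (0.824, 0 and 1.04 EPM with the antibody, no control event), that from 65212001 (33.9, 32.2 and 46.4 EPM against 43.5, 24.1 and 101 EPM) and that from 65197001 (51.2, 35.5 and 42.9 EPM against 43.5, 24.1 and 0 EPM). In the 4 consecutive windows from 65206001 to 65210000 the log2 fold changes were 0.45, 0.18, 0.38 and 0.19. They were 0.08, -0.16, 0.06 and -0.37 with library totals and so had no stable direction.

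**Figure D4:**
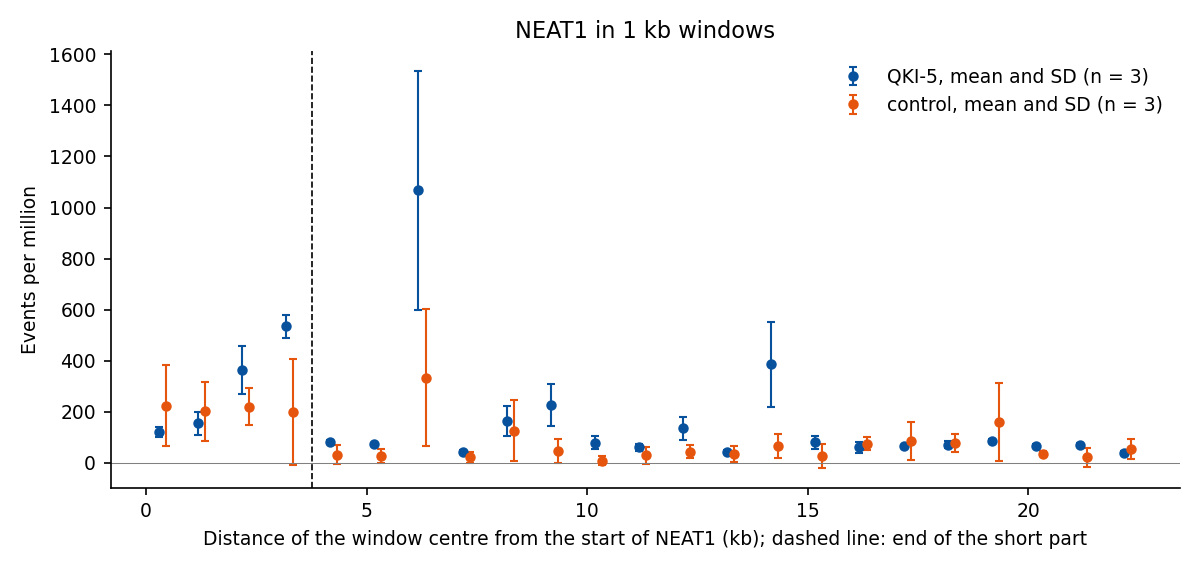
NEAT1 in the 23 tested 1 kb windows, in EPM (vertical axis, mean and SD of 3 libraries) against the distance of the window from the start of NEAT1 (kb), for QKI-5 (blue) and control (orange). The highest QKI-5 windows are those near 3, 6 and 14 kb, and beyond 16 kb the QKI-5 means are at most 85.5 EPM.

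The signal kept to the annotated interval and strand. In the 5000 nt before the start, the QKI-5 libraries had 4, 0 and 2 events and the controls none. In the 5000 nt after the end they had 9, 3 and 9 events and the controls none. On the minus strand within the interval, QKI-5 replicate 1 had 11 events, or 0.0294% of the events on both strands (95% exact interval 0.0147 to 0.0526%), and the other 5 libraries had none. The first 100 nt of NEAT1 held 84, 30 and 49 events with the antibody, and the last 100 nt held 3, 3 and 1. The 3′ end of the long RNA is known for a triple-helix fold in place of a poly(A) tail. Almost no events were recorded in that stretch in any library, with 0 in each control, as in many other stretches of 100 nt. The 100 nt that begin 20000 nt from the start held 0 events in every library. A link to the fold was not tested.

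MALAT1, the other abundant nuclear noncoding RNA of this region and a component of nuclear speckles, was read in the 2 plus-strand windows from 65260001 to 65280000. Their level was 4734, 4036 and 4564 EPM with the antibody and 6076, 4750 and 4529 EPM in the controls. The groups overlapped there, with a ratio of means of 0.868. The ratio of NEAT1 to the MALAT1 windows within a library was 1.09, 0.80 and 0.84 with the antibody and 0.31, 0.34 and 0.66 without it. Its means were 0.91 ± 0.15 and 0.44 ± 0.19 (SD, n = 3 each), and every QKI-5 library was above every control. This ratio does not use the library totals. The ratio uses the level on which NEAT1 was chosen and is a description.

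**Figure D5:**
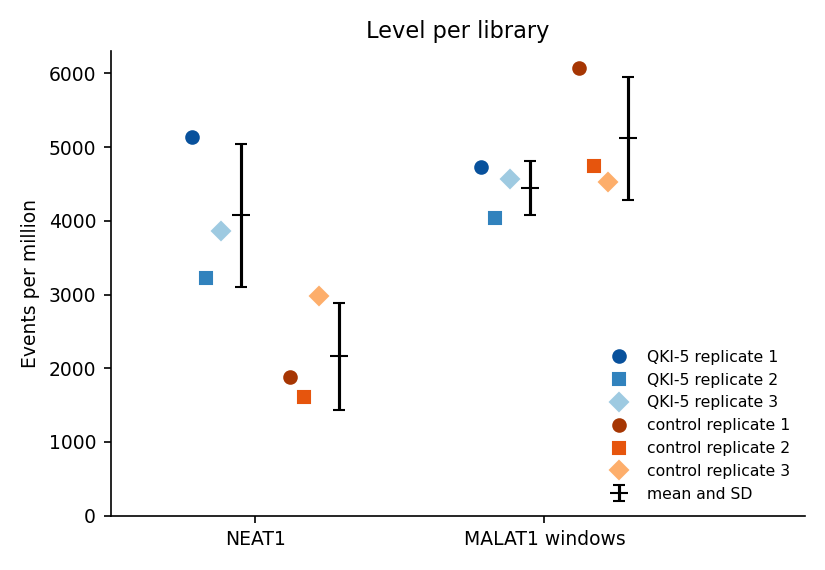
EPM (vertical axis) of NEAT1 and of the MALAT1 windows, 1 point per library, with the mean and SD of each group (n = 3). NEAT1 is higher in every QKI-5 library than in every control, and the MALAT1 windows overlap between the groups.

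The 10 kb windows whose levels over the 6 libraries ran most like those of NEAT1 were found by the Euclidean distance of log2(EPM + 1) after each window's own mean was subtracted. Among 313 windows with at least 3 events in every library, the median distance was 2.41. The nearest was on chromosome 3, plus strand, 111670001 to 111680000 (distance 0.42), with 184, 138 and 172 EPM with the antibody and 102, 72.3 and 134 EPM in the controls. Next was chromosome 1, minus strand, 245010001 to 245020000 (0.45), followed by 196770001 to 196780000 (0.68) and 149680001 to 149690000 (0.76) on the minus strand of chromosome 3 and 131190001 to 131200000 (0.76) on the minus strand of chromosome 6. All had 3 or 4 events in controls 2 and 3, so their control levels are coarse. The MALAT1 window from 65270001 was at 1.47.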

How the data were processed

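The authors deposited, for each of the 6 libraries, a list of single-nucleotide crosslink positions with a whole-number count of events and a strand, not normalized. The submitters' processing notes name hg19 as the build and cutadapt and Bowtie as tools. Their versions, merging of PCR copies and placement of multiply aligned reads are stated in none of the sources used here. Coordinates count from 1. The members, lists and rules were chosen with earlier results of these data known.

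Counts were summed over NEAT1, its parts and strand-specific windows of 10 kb (NEAT1 as 2 features) and 1 kb. Windows were tested with edgeR 4.0.16 (R 4.3.3; quasi-likelihood F test, TMM, filterByExpr, group only, Benjamini-Hochberg), after a test on simulated counts. DESeq2 1.42.0 was an alternative. The SE is the log2 fold change divided by the square root of F. Shares were compared with exact permutation tests (Python 3.11.15, numpy 2.4.6, scipy 1.17.1). The p-values of the planned permutation tests of the NEAT1 level, the 5′ share and the peak share are not given. Those of NEAT1 in the window fits are not given either. The gene was chosen on these libraries. Named items are the NEAT1 parts, the 10 leading peaks, the 3 highest and 3 lowest 1 kb windows, the MALAT1 windows and the 5 most similar windows; other 1 kb windows and the peaks just outside the 10 were named after their values were seen. Planned values for the QKI recognition element, paraspeckle protein genes and cell type markers need an hg19 sequence or annotation and were not analysed here. Alternatives comprised scaling, filters, position counting, the replicate number as a block and leaving out libraries.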

Additional observations from a re-analysis of the deposited data

How the results depend on the processing

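Differences below are QKI-5 minus control. With each position counted once, the NEAT1 level differed by -771 and the held-out peak share by -6.71 percentage points, and the log2 fold change of the short part was -0.15. With at most 3 events per position the level differed by -256. Leaving out 1 library in turn gave 1381 to 2335 EPM for the level, -10.9 to -0.985 points for the short share, 11.01 to 17.0, 2.28 to 8.89 and -16.5 to -10.2 points for the 5′, middle and 3′ segments, 14.2 to 22.0 points for held-out peaks, 0.386 to 0.585 for the ratio to MALAT1, and log2 fold changes of 0.37 to 1.88 (short) and 0.81 to 2.70 (long-only). None of these changed direction. The DESeq2 Wald test called the long-only part (1.66).

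Counts of 10 kb windows were 231 higher and 32 lower. They were 32 and 56 with library totals, 85 higher with DESeq2 size factors, 6 lower with no filter, 26 and 67 with each position counted once, 130 lower by DESeq2, and 10 to 810 higher and 8 to 97 lower with 1 library left out. Counts of 1 kb windows were 2481 and 115. They were 231 higher with library totals, 73 lower with DESeq2 size factors, 39882 higher and 1 lower with no filter, 574 higher with each position counted once, and 31 to 4416 higher and 7 to 39 lower with 1 library left out. The 8 NEAT1 windows became 3 with library totals, 14 with DESeq2 size factors, 2 with each position counted once, 15 by DESeq2, and 1 to 20 with 1 library left out. The causes were not tested.

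Blocking on the replicate number (replicate block), edgeR called 0 windows in either direction at 10 kb (2200 had an unadjusted p under 0.05, smallest adjusted p 0.181), 0 at 1 kb (1124, 0.0565) and 0 of NEAT1. DESeq2 without the block called 227 higher at 10 kb and 3055 at 1 kb. For the shares of the short part and of the middle and 3′ segments the paired exact permutation p was 0.25, the smallest that 3 pairs allow. The numbers were not taken as pairs, since deviations of same-numbered libraries correlated at -0.003, 0.10 and 0.075 over 29959 windows, and QKI-5 replicate 1 correlated best with control replicate 3. Low control depth limits all control shares.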

Other observations

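Control positions within NEAT1 often carried QKI-5 events as well. Of the 219, 52 and 60 positions of controls 1, 2 and 3, 70.3, 63.5 and 80.0% also carried an event in QKI-5 replicate 1, where 31.4% of NEAT1 nucleotides did. In QKI-5 replicate 2 the shares were 33.8, 46.2 and 51.7% against 9.53% of nucleotides, and in QKI-5 replicate 3 they were 40.6, 38.5 and 61.7% against 14.0%. Control replicate 3, which stood apart in the leading peak, had the highest share in each. The cause was not tested.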
